A study of Homo sapiens with 6 samples.

Results

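Small nucleolar RNAs (snoRNAs) and small Cajal body RNAs (scaRNAs) were read from the gene counts of A2780 cells treated with DMSO or with TH588. Members were all genes whose symbol starts with SNORD, SNORA or SCARNA followed by a digit and that had at least 10 counts in each of the 6 libraries. Of the 58336 genes in the table, 552 carried such a symbol and 113 of these passed the count minimum, 53 SNORD, 47 SNORA and 13 SCARNA genes. Members were thus chosen by their raw counts alone, which used all libraries of both groups, so the members' presence and level are a description. A2780 is an ovarian cancer cell line, and TH588 inhibits the nucleotide-cleaning enzyme MTH1 and arrests cells in mitosis. The DMSO group was A2780 with vehicle, and the TH588 group was the same line with 6 µM TH588 (TH-588 in the labels) for 48 h before RNA was collected, with 3 replicates each, named A, B and C. Libraries were made with a kit that selects polyadenylated RNA and does not keep the strand.

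SNORD genes encode box C/D snoRNAs, which carry a C box near the 5′ end and a D box near the 3′ end, bind the proteins FBL, NOP56, NOP58 and SNU13, and mostly guide 2′-O-methylation of ribosomal RNA. SNORA genes encode box H/ACA snoRNAs, which fold into hairpins followed by an H box and an ACA box, bind DKC1, NHP2, NOP10 and GAR1, and mostly guide pseudouridylation. SCARNA genes encode the guides of the same kinds that work in Cajal bodies on spliceosomal RNAs. A few snoRNAs, U3 (SNORD3 genes), U14 (SNORD14 genes) and U17 (SNORA73 genes) among them, take part in cutting the ribosomal RNA precursor. Most human snoRNAs are released from introns of a host gene and trimmed by exonucleases, whereas U3 has its own promoter. Mature snoRNAs have no long poly(A) tail, and which form of each RNA entered these libraries was not tested.

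Total counts were between 77634048 and 99074175 in 5 libraries and 28537837 in TH588 replicate A, the shallowest library, which also stood apart for SNORD3A and is named beside the results it moves. Of markers often used for ovarian carcinoma, PAX8, CDH1 and KRT19 reached at most 0.0258 CPM (counts scaled to a fixed library total). WT1, MUC16 and KRT8 reached at most 0.0811, 0.193 and 0.245 CPM. EPCAM was at 0.475 to 0.845 CPM with DMSO and 4.06 to 5.45 with TH588. KRT18 was at 3.001 to 3.81 CPM with DMSO and 5.75 to 7.68 with TH588. The mesenchymal gene VIM was at 3122 to 4445 CPM over both groups. Values below are CPM after TMM normalization, unless a share of all counts is named. The test of each member was edgeR's quasi-likelihood F test, fitted on all 15844 genes that passed its filter, at an adjusted p under 0.05 over all of them.

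The members' sequences show what the class names stand for, and those printed belong to the RNAs that the results below turn on. All sequences are the GRCh38 bases of the deposited coordinates, 5′ to 3′ on the RNA's strand. In the box C/D members, capitals mark a C box match (NTGATGA in the first 20 bases) and a D box match (CTGA in the last 15 bases).
SNORD12B (chr20:49280319-49280409, plus strand): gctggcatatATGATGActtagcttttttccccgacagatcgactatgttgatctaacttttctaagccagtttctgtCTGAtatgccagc
SNORD12C (chr20:49278940-49279028, plus strand): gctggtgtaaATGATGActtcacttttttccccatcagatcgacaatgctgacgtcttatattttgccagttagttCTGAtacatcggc
SNORD14A (chr11:17074654-17074744, minus strand): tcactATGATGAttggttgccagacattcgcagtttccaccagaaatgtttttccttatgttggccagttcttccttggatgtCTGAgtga
SNORD101 (chr6:132815307-132815379, plus strand): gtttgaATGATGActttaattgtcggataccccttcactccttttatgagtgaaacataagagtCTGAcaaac
SNORD116-6 (chr15:25065026-25065121, plus strand): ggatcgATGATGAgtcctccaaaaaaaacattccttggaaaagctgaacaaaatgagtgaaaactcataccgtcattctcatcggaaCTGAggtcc
SNORD116-7 (chr15:25067788-25067882, plus strand): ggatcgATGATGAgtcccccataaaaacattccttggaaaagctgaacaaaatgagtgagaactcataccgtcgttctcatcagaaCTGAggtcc
Both boxes were found in 40 of the 53 SNORD members (75.5%) and in 193 of all 314 SNORD genes (61.5%), and in 0 of the 47 SNORA members.

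In the box H/ACA members, capitals mark an H box match (ANANNA in the middle of the RNA) and an ACA placed 3 bases from the end.
SNORA38 (chr6:31623079-31623210, plus strand): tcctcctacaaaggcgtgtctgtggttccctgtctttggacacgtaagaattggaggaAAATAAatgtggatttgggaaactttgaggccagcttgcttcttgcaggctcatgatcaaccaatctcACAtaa
SNORA22 (chr7:65755526-65755659, plus strand): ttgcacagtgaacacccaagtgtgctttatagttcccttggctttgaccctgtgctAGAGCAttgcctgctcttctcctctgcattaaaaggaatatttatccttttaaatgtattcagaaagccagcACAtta
SNORA22C (chr7:65065999-65066132, plus strand): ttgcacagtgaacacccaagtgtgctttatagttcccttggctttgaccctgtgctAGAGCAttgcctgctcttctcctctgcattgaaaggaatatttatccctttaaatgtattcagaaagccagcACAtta
SCARNA20 (chr17:60231516-60231646, minus strand): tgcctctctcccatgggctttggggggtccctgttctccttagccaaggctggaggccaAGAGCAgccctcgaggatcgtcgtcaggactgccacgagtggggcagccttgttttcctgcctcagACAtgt
SCARNA22 (chr4:1974636-1974760, plus strand): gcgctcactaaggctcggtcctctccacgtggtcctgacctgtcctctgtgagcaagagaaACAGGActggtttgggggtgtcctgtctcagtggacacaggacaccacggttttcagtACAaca
Both matches were found in 31 of the 47 SNORA members (66.0%) and in 133 of all 213 SNORA genes (62.4%), and in 0 of the 53 SNORD members. Of the 13 SCARNA members, 6 held the H and ACA matches and 3 the C and D matches. A match shows the letters only, and a missing match shows only that these letters are not in these windows.

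Many genes of the family had no counts, among them every gene that lay wholly under another gene's exons. Of the 552 genes, 315 had no count in any library and 124 had counts without being members. All 144 genes that lay wholly under exons of other genes on either strand were at 0 in every library, 86 SNORD, 53 SNORA and 5 SCARNA genes. Of the 367 genes that no exon of another gene overlapped, 153 (41.7%) were at 0 and 108 were members. The genes at 0 under other exons included SNORD118 (U8), SNORD13 (U13), SNORD22 (U22), SNORA73A, SNORD14B, SNORD14C and SNORD14D, which take part in ribosomal RNA processing, and SCARNA2, SCARNA15, SCARNA16 and SCARNA17. SNHG1, a well-known snoRNA host, held 7 genes of the family, 6 of them at 0, and RPL13A held 4, all at 0. How reads over overlapping genes were counted was not given in the sources used here, so 0 at these genes shows nothing about the RNAs themselves.

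At the count minimum, SNORA19 and SNORD88A were the members with the lowest single count, 10 in TH588 replicate A for both. The genes just outside were SNORD126 with a lowest count of 9 and SNORA58 and SNORA74D with 8, each in that same shallow library. In all, 10 genes missed the minimum through TH588 replicate A alone. Of the genes outside, 17 reached 10 counts in every DMSO library but not in every TH588 library, and 2 the reverse. The members' counts of higher and lower calls and their median changes do not cover these genes. Members were short, with a median length of 92 bases for SNORD (68 to 791), 135 for SNORA (122 to 701) and 143 for SCARNA (125 to 353).

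SNORD3A, one of the genes for U3, was by far the most abundant member and is described apart. U3 pairs with the ribosomal RNA precursor and is needed for the early cuts that release 18S rRNA. The gene, ENSG00000263934, lies on chromosome 17 of GRCh38 from 19188016 to 19188714 on the plus strand, outside any other gene's span on that strand. Its first 217 bases, the stretch that aligns with the 217-base SNORD3D gene, are shown since the U3 copies differ within them, with a match to NTGATGA and the last CTGA in capitals.
SNORD3A (chr17:19188016-19188232, plus strand): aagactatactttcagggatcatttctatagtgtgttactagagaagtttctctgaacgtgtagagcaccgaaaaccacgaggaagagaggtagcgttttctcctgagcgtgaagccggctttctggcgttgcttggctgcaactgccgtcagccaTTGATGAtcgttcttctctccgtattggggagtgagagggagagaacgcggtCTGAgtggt
The same stretch differed by 1 base each in SNORD3B-1, SNORD3B-2 and SNORD3C and by 3 bases in SNORD3D, so reads from the mature part of U3 can match several copies.

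The replicates are given in the order A, B, C here and below. SNORD3A took 7.68%, 10.6% and 9.88% of all counts with DMSO, and 21.9%, 11.2% and 12.95% with TH588. The TH588 libraries were all above the DMSO libraries, with replicate A far above and replicate B close to the DMSO range. The mean share was 9.39% ± 1.52 (SD, n = 3) with DMSO and 15.4% ± 5.76 (SD, n = 3) with TH588, a difference of 5.98 percentage points. The exact two-sided permutation test gave p = 0.1, the smallest p that 3 libraries against 3 allow.

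As a normalized level, SNORD3A was at 77717, 110748 and 103598 CPM with DMSO and at 233977, 102028 and 120478 CPM with TH588. On this scale the groups overlapped, since TH588 replicate B lay below DMSO replicates B and C. Its log2 fold change was 0.64 (standard error, SE, 0.25, adjusted p = 0.0477 in edgeR). Without TH588 replicate A it was 0.20 (adjusted p = 0.244), and the rise also lost its call without any 1 of the 3 DMSO libraries, at 0.52 without replicate A (adjusted p = 0.116), 0.74 without B (adjusted p = 0.0552) and 0.71 without C (adjusted p = 0.0644). DESeq2 gave 0.65 (adjusted p = 0.195), limma-voom 0.56 (adjusted p = 0.0602) and edgeR with the replicate letter as a block 0.55 (adjusted p = 0.0812).

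The other U3 genes had far fewer counts than SNORD3A, and differences in change between the copies were not tested. Together their counts were 0.0371% to 0.0783% of SNORD3A's. SNORD3C, which lies on the minus strand of chromosome 17 from 19189665 to 19190245, was at 13.2, 26.7 and 15.7 CPM with DMSO and at 50.8, 43.6 and 53.2 CPM with TH588. Its groups did not overlap, and it rose by a log2 fold change of 1.41 (SE 0.20, adjusted p = 0.000119 in edgeR). Relative to SNORD3A's counts, SNORD3C was at 0.0170%, 0.0241% and 0.0151% with DMSO and at 0.0217%, 0.0427% and 0.0441% with TH588, where TH588 replicate A lay within the DMSO range. SNORD3B-1 was at 30.8 ± 5.05 CPM with DMSO and 27.2 ± 6.15 with TH588 (SD, n = 3 each, log2 fold change -0.17, adjusted p = 0.399 in edgeR). SNORD3B-2 ranged from 1.31 to 16.0 CPM over the 6 libraries (log2 fold change 1.01, SE 0.59, adjusted p = 0.176 in edgeR). How reads that match several U3 genes were assigned was not given in the sources used here, so the split among these copies is uncertain.

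**Figure D1:**
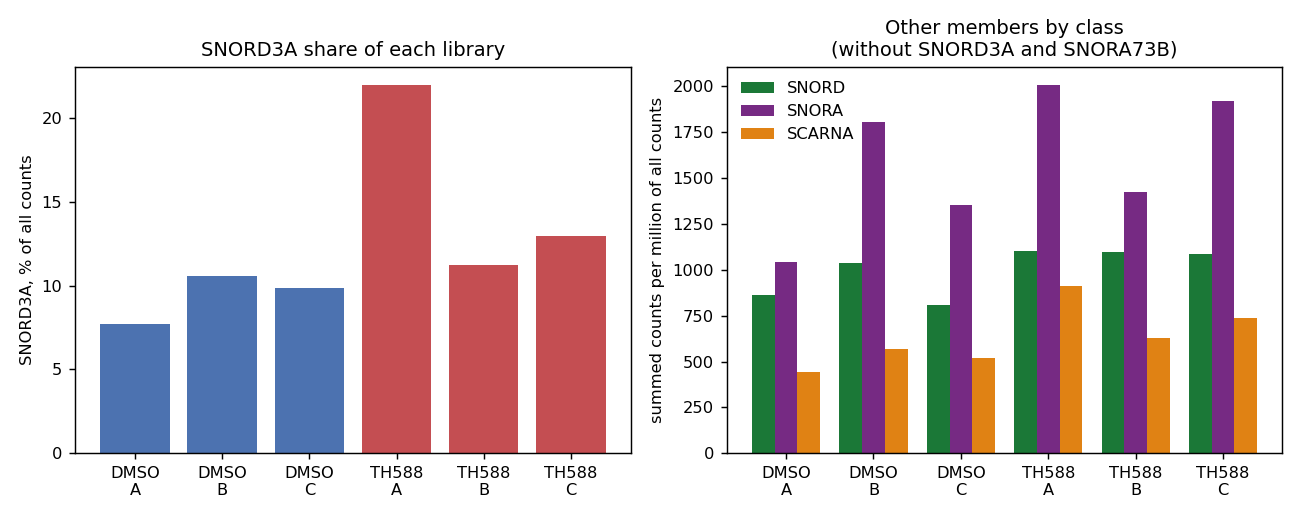
Left, the percentage of all counts taken by SNORD3A in each of the 6 libraries (bars, axis from 0). Right, the summed CPM (scaled to all counts) for SNORD, SNORA and SCARNA members in each library, without SNORD3A and SNORA73B. SNORD3A reached 21.9% in TH588 replicate A and 7.68% to 12.95% in the others. The summed SCARNA values were 627 to 913 with TH588 and 441 to 568 with DMSO, without TMM normalization, after which the groups overlapped.

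The other 112 members together took 0.652%, 1.38% and 0.971% of all counts with DMSO and 1.37%, 1.07% and 1.57% with TH588, so the groups overlapped. SNORA73B alone made up 64.1% to 76.1% of that sum. Without SNORD3A and SNORA73B, SNORA members summed to 1041, 1803 and 1354 CPM (scaled to all counts) with DMSO and 2005, 1423 and 1921 with TH588, with overlap. SNORD members summed to 808 to 1036 with DMSO and 1085 to 1103 with TH588, and SCARNA members to 441 to 568 and 627 to 913. On this scale neither class overlapped, but the sums were not TMM-normalized. The TMM factors were 1.098 for TH588 replicate B and 0.956 for DMSO replicate B. Divided by these factors, TH588 replicate B lay below DMSO replicate B in both classes, so the normalized groups overlapped. In a bulk sample, fewer cells that carry an RNA and less of it per cell cannot be told apart.

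Levels per kilobase used each gene's full annotated length, which was 699 bases for SNORD3A, more than the stretch printed above. On this scale the order was led by SNORD3A at 178480 CPM per kb, averaged over all libraries, and SNORA73B at 41429. Then came SNORD17 at 2217, SNORA53 at 1890, SNORD15B at 1759, SNORA23 at 1453 and SCARNA5 at 1235 CPM per kb. The spread between libraries of neighbours after SNORA73B overlapped, so their order is not firm. The median was 18.4 CPM per kb for SNORD members other than SNORD3A, 43.9 for SNORA and 34.6 for SCARNA members.

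After TH588, 14 of the 113 members were higher (12.4%), 8 were lower (7.08%) and 91 did not pass the threshold. Of all 15844 genes tested, 24.2% were higher and 25.3% were lower, 49.6% in either direction, so the members' share of 19.5% was below the background in both directions. Members whose 2 groups of libraries did not overlap numbered 20 of 113, against 57.7% of all genes tested. The median log2 fold change was 0.05 over the members, with 65 above 0 and 48 below, and 0.02 over all genes.

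Members at higher levels varied more between replicates than genes of like level did, while members at low levels varied about as much. The median biological coefficient of variation, edgeR's estimate of the relative spread between replicates, was 0.236 for members and 0.121 for all genes tested. At a mean level of at least 2 on the log2 CPM scale it was 0.207 for the 50 members, of which 12 were called, and 0.0975 for all genes, of which 60.8% were called. Below that level it was 0.262 for the 63 members, 10 of them called, and 0.257 for all genes, of which 31.5% were called. DMSO replicate A was the lowest DMSO library for 84 of the 113 members, against 35.7% of all genes. TH588 replicate A was the highest TH588 library for 84 of the 113, against 36.8% of all genes. Of the 14 members called higher, 12 had their highest TH588 level in replicate A. Whether depth or RNA quality has a part in this was not tested.

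**Figure D2:**
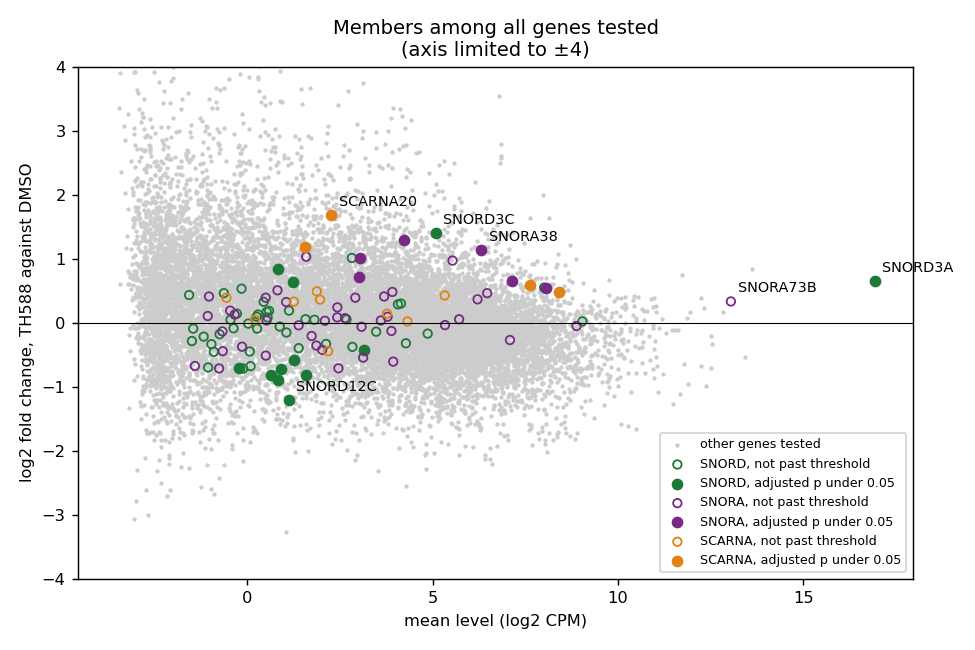
The log2 fold change of TH588 against DMSO (vertical axis, limited to ±4, so more extreme genes are not drawn) against the mean level in log2 CPM (horizontal axis) for the members, coloured by class and filled where the adjusted p was under 0.05, and for all other genes tested in grey. Called SNORA and SCARNA members lie above 0, the 8 members called lower are SNORD, and SNORD3A lies far to the right of all others.

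By class, the 52 SNORD members other than SNORD3A had 3 higher (5.77%) and 8 lower (15.4%), with log2 fold changes from -1.21 to 1.41, beside 24.2% higher and 25.3% lower among all genes. Among the 47 SNORA members 6 were higher (12.8%) and 0 lower in edgeR (-0.71 to 1.30), where 1 was lower at an unadjusted p under 0.05, DESeq2 called 0 lower and limma-voom 1. The SNORA counts were 5 higher and 3 lower without DMSO replicate A, 12 and 0 without DMSO replicate B, 10 and 0 without TH588 replicate B, 6 and 3 without TH588 replicate C, 14 and 5 with no filter, and 0 and 0 when scaled to the other short noncoding RNAs. Among the 13 SCARNA members 4 were higher (30.8%) and 0 lower in edgeR (-0.44 to 1.68), with 0 lower at an unadjusted p under 0.05, in DESeq2 or in limma-voom, and 6 higher and 1 lower with no filter. The class medians were -0.09 for SNORD, 0.08 for SNORA and 0.39 for SCARNA members, and they moved with single libraries. Without TH588 replicate A they were -0.25, -0.05 and 0.07, and without DMSO replicate A they were -0.14, -0.04 and 0.21. Without DMSO replicate B they were -0.01, 0.35 and 0.56, and without TH588 replicate B 0.02, 0.31 and 0.67. Scaled to the other short noncoding RNAs instead of by TMM, they were -0.29, -0.11 and 0.18, and with library size only 0.02, 0.18 and 0.49.

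The called members are also given by length, with a split at 100 bases that was chosen after the values were seen. The 8 members called lower were 73 to 96 bases long, and the 14 called higher were 104 to 699 bases long. Of the 43 members under 100 bases, 0 were higher and 8 (18.6%) lower in edgeR, with 0 higher at an unadjusted p under 0.05, in DESeq2 or in limma-voom. Of the other 69, without SNORD3A, 13 (18.8%) were higher and 0 lower in edgeR, where 1 was lower at an unadjusted p under 0.05, DESeq2 called 0 lower and limma-voom 1. These shares were below the 24.2% higher and 25.3% lower of all genes. The split by direction did not hold in every setting, since 3 of the 69 were lower without DMSO replicate A and 3 without TH588 replicate C, and with no filter 6 of the 69 were lower and 1 of the 43 was higher. The medians were -0.15 and 0.19, and without TH588 replicate A -0.40 and -0.02. All 43 members under 100 bases are SNORD genes, so length and class cannot be told apart there.

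Among the SCARNA members, SCARNA20 had the highest log2 fold change of all 113. It is a box H/ACA RNA in the span of USP32, and was at 1.89, 3.10 and 2.02 CPM with DMSO and 8.89, 6.09 and 7.61 CPM with TH588. The groups were far apart, with a log2 fold change of 1.68 (SE 0.20, adjusted p = 3.01e-05 in edgeR). SCARNA22, in NSD2, was at 1.30, 2.53 and 1.67 CPM with DMSO and 5.60, 2.97 and 4.16 with TH588, without overlap, and rose by 1.18 on the log2 scale (SE 0.27, adjusted p = 0.00298 in edgeR).

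SCARNA7, in KPNA4 on chromosome 3 from 160514907 to 160515236, was the steadiest of the abundant ones, at 142, 175 and 152 CPM with DMSO and 285, 211 and 211 with TH588. Its groups did not overlap and the log2 fold change was 0.59 (SE 0.12, adjusted p = 0.00157 in edgeR). SCARNA5, in ATG16L1, had 241, 307 and 307 CPM with DMSO and 533, 284 and 373 with TH588, where TH588 replicate B lay within the DMSO range. Its rise of 0.47 (SE 0.18, adjusted p = 0.0469 in edgeR) lost its call without TH588 replicate A or C or any 1 DMSO library. SCARNA6, in the same host, was at 34.1 ± 6.14 and 46.2 ± 16.1 CPM (SD, n = 3 each) and did not pass (log2 fold change 0.43, adjusted p = 0.0977 in edgeR). The other 8 SCARNA members, SCARNA1, SCARNA3, SCARNA8, SCARNA9, SCARNA11, SCARNA13, SCARNA18 and SCARNA21, did not pass either, with log2 fold changes from -0.44 (SCARNA8) to 0.49 (SCARNA21). SCARNA1 shows their spread, with 4.81 to 23.6 CPM among the DMSO libraries alone.

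Among the SNORA members, SNORA73B is U17, a box H/ACA RNA that takes part in cutting the ribosomal RNA precursor rather than guiding modification. It was at 4233, 10848 and 7370 CPM with DMSO and 10328, 6845 and 11086 with TH588, so the groups overlapped. The means were 7483 ± 3309 and 9420 ± 2262 CPM (SD, n = 3 each, log2 fold change 0.33, SE 0.26, adjusted p = 0.326 in edgeR). It lies on chromosome 1 from 28508559 to 28508762. Its neighbour SNORA73A lies under exons of other genes and was at 0.

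SNORA38, in PRRC2A, was at 27.3, 73.0 and 49.7 CPM with DMSO and 119, 81.3 and 127 with TH588. The groups did not overlap, although DMSO replicate B came close to TH588 replicate B, and the rise was 1.13 on the log2 scale (SE 0.27, adjusted p = 0.00424 in edgeR). SNORA37, in MBD2, was at 3.29, 8.22 and 5.03 CPM with DMSO and 14.4, 8.31 and 11.0 with TH588, and rose by 1.01 on the log2 scale (SE 0.28, adjusted p = 0.00977 in edgeR), with DMSO replicate B only just below TH588 replicate B. Both belong to the class that guides pseudouridylation, and in both the gap between the groups was narrow.

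SNORA22C and SNORA22, whose sequences differ at 2 of 134 bases as printed above, moved in the same direction with unequal certainty. SNORA22C was at 8.70, 13.1 and 10.9 CPM with DMSO and 45.8, 13.2 and 22.8 with TH588, a log2 fold change of 1.30 (SE 0.33, adjusted p = 0.00629 in edgeR). SNORA22 was at 23.5, 41.7 and 28.52 CPM with DMSO and 115, 22.8 and 48.2 with TH588 (log2 fold change 0.97, SE 0.42, adjusted p = 0.0752 in edgeR). In both, TH588 replicate A was highest, and replicate B lay just above the DMSO range for SNORA22C and just below it for SNORA22. Reads shared by the near-identical copies make the split between them uncertain.

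SNORA74B, in ATP6V0E1, was at 106, 115 and 110 CPM with DMSO and 230, 143 and 148 with TH588, without overlap, and rose by 0.65 on the log2 scale (SE 0.15, adjusted p = 0.00316 in edgeR). SNORA74A, which shares 68.4% of its bases with it and lies in MATR3, was at 148 ± 60.6 and 122.99 ± 23.8 CPM (SD, n = 3 each, log2 fold change -0.27, adjusted p = 0.344 in edgeR). The difference between these 2 changes was not tested. SNORA2B, in KANSL2, rose from 6.14 ± 0.957 to 10.3 ± 3.96 CPM (SD, n = 3 each, log2 fold change 0.71, adjusted p = 0.0179 in edgeR). SNORA23, in IPO7, rose from 215 ± 63.5 to 314 ± 56.9 CPM (SD, n = 3 each, log2 fold change 0.55, adjusted p = 0.0266 in edgeR), with TH588 replicate B below DMSO replicate B. SNORA23 lost its call without DMSO replicate A or C or TH588 replicate A or C. SNORA53 at 479 ± 101 and 462 ± 107 CPM and SNORA49 at 74.5 ± 31.3 and 103 ± 27.0 CPM (SD, n = 3 each) did not pass.

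Among the SNORD members, the 8 called lower were SNORD12C, SNORD11, SNORD12B, SNORD99, SNORD14A, SNORD116-17, SNORD101 and SNORD116-6. All 8 had groups that did not overlap, which choosing them by adjusted p favours and which held for 57.7% of all genes tested. Their DMSO means ran from 1.02 CPM (SNORD116-17) to 10.1 CPM (SNORD116-6). SNORD12C and SNORD12B, both in introns of the noncoding host ZFAS1 and sharing 75.0% of their bases as printed above, fell together. SNORD12C was at 1.75, 4.19 and 2.87 CPM with DMSO and 1.72, 1.08 and 1.15 with TH588, where DMSO replicate A was just above TH588 replicate A, and it fell by 1.21 on the log2 scale (SE 0.30, adjusted p = 0.00501 in edgeR). SNORD12B was at 2.76, 4.11 and 4.39 CPM with DMSO and 2.24, 2.02 and 2.14 with TH588, a log2 fold change of -0.82 (SE 0.19, adjusted p = 0.00353 in edgeR).

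SNORD11, on chromosome 2 from 202293051 to 202293134 in NOP58, the gene of a core box C/D protein, was at 1.92, 2.31 and 2.44 CPM with DMSO and 1.42, 1.002 and 1.23 with TH588 (log2 fold change -0.90, SE 0.21, adjusted p = 0.00324 in edgeR). SNORD99, in the noncoding host SNHG12, was at 1.81, 2.18 and 1.80 CPM with DMSO and 1.38, 1.25 and 0.743 with TH588 (log2 fold change -0.81, SE 0.25, adjusted p = 0.0167 in edgeR). SNORD14A, a U14 gene in RPS13, was at 1.81, 2.41 and 2.63 CPM with DMSO and 1.23, 1.54 and 1.32 with TH588 (log2 fold change -0.73, SE 0.21, adjusted p = 0.0112 in edgeR). It was the only U14 gene among the members, since SNORD14B, SNORD14C and SNORD14D were at 0 and SNORD14E had 1 count in all. SNORD101, in RPS12, fell from 2.79 ± 0.232 to 1.89 ± 0.295 CPM (SD, n = 3 each, log2 fold change -0.58, adjusted p = 0.0184 in edgeR). SNORD99 lost its call without DMSO replicate B or TH588 replicate C, SNORD14A without DMSO replicate C or TH588 replicate C, and SNORD101 without DMSO replicate C or TH588 replicate B.

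Of the SNORD members called higher, SNORD46 was at 1.17, 1.503 and 1.24 CPM with DMSO and 3.25, 1.89 and 2.07 with TH588, without overlap (log2 fold change 0.84, SE 0.24, adjusted p = 0.0102 in edgeR). SNORD89, in RNF149, rose from 1.84 ± 0.322 to 2.89 ± 0.123 CPM (SD, n = 3 each, log2 fold change 0.64, adjusted p = 0.0107 in edgeR). It falls outside the naming rule and was named after its values were seen. Among the most abundant SNORD members after SNORD3A, SNORD3C rose as described above, and the others that are named did not pass. SNORD17 was at 584, 529 and 452 CPM with DMSO and 572, 577 and 438 with TH588, with almost the same mean in both groups (log2 fold change 0.02, SE 0.12, adjusted p = 0.904 in edgeR). SNORD15B, in RPS3, was at 117, 318 and 190 CPM with DMSO and 337, 230 and 349 with TH588, so that DMSO replicate B lay within the TH588 range (log2 fold change 0.55, adjusted p = 0.117 in edgeR). SNORD104 did not pass either, at 21.4 ± 4.29 and 17.4 ± 6.35 CPM (SD, n = 3 each).

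**Figure D3:**
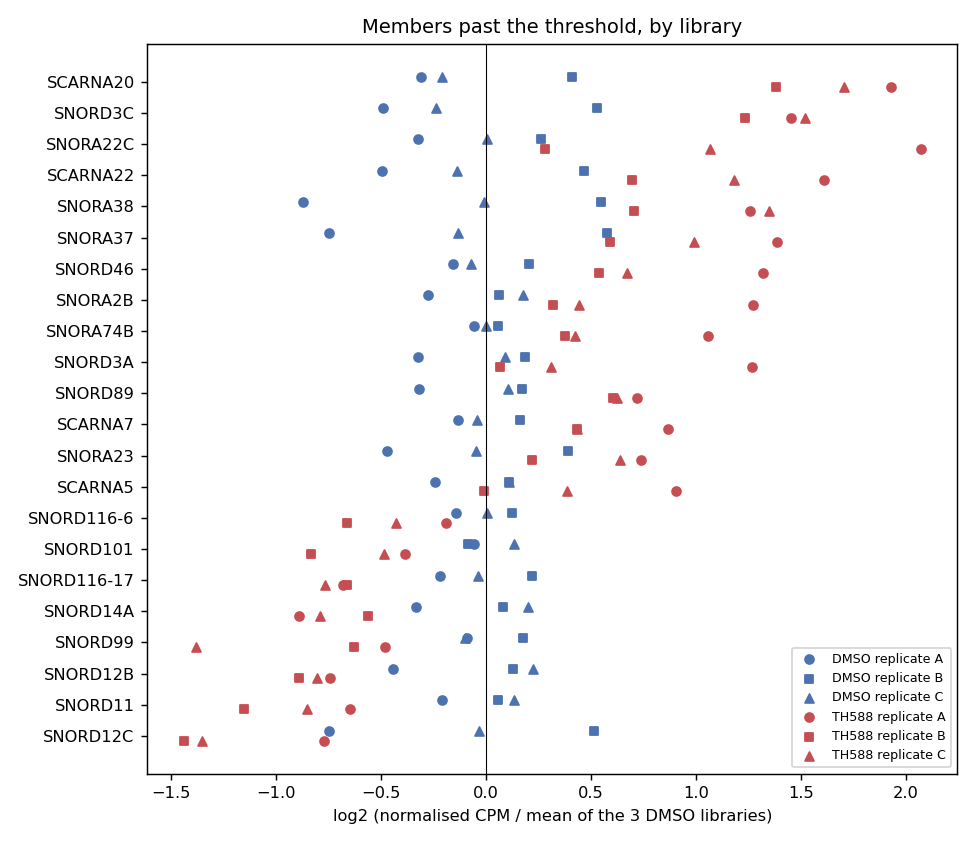
Each of the 22 members past the threshold (vertical axis, ordered by log2 fold change) with its level in each library as log2 of the normalized CPM over the mean of the 3 DMSO libraries (horizontal axis). Colour gives the group and the marker shape the replicate. The TH588 circle, replicate A, is the highest TH588 point in 12 of the 14 higher members, and SNORD3A, SNORA23 and SCARNA5 have overlapping groups.

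The SNORD116 genes, a tandem array of box C/D snoRNAs within SNHG14 in the imprinted region of chromosome 15 that is lost in Prader-Willi syndrome, gave the largest set of members from 1 host, 17 of 30 genes. Their summed level was 49.7, 70.9 and 64.1 CPM with DMSO and 86.4, 44.6 and 53.3 with TH588, so TH588 replicate A was above and TH588 replicate B below every DMSO library. Their log2 fold changes ran from -0.70 to 0.46 with a median of 0.05, 10 above 0 and 7 below. The median was -0.19 without TH588 replicate A. Of the 17, SNORD116-6 and SNORD116-17 passed the threshold, and with library size only 0 did. SNORD116-6 was at 9.15, 11.0 and 10.2 CPM with DMSO and 8.85, 6.38 and 7.51 with TH588 (log2 fold change -0.43, SE 0.14, adjusted p = 0.0223 in edgeR), and lost its call without DMSO replicate B or C or TH588 replicate B or C. SNORD116-17 fell from 1.02 ± 0.157 to 0.626 ± 0.0236 CPM (SD, n = 3 each, log2 fold change -0.70, adjusted p = 0.0394 in edgeR), and lost its call without TH588 replicate A, B or C or without DMSO replicate B or C.

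Copies in this array show how far counts can be tied to 1 gene. SNORD116-17 and SNORD116-19 are identical in sequence, yet SNORD116-19 was at 6.24 ± 4.20 CPM with DMSO and 6.83 ± 4.95 with TH588 (SD, n = 3 each, log2 fold change 0.05, adjusted p = 0.939 in edgeR). SNORD116-5 and SNORD116-7, SNORD116-3 and SNORD116-9, and SNORD62A and SNORD62B were identical pairs too. SNORD116-6 and SNORD116-7, printed above, differed by 6 bases, and SNORD116-7 had a log2 fold change of -0.38 (adjusted p = 0.121 in edgeR). Values of single copies are uncertain for this reason. Of the 48 SNORD115 genes further along SNHG14, 16 were at 0, the highest count of any in 1 library was 27, and none was a member.

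Of the 113 members, 107 lay in the span of another gene on the same strand, in 77 distinct host genes, and 73 of these members had a protein-coding host. The 6 without a host were SNORD3A, SNORD3B-1, SNORD3B-2, SNORD3C, SNORD62A and SNORD62B. Where several genes held a member, which was so for 6 members, protein-coding genes and genes named as snoRNA hosts were preferred. The longest of those was taken (RCC1 rather than SNHG3 for SNORA73B). Of the 69 hosts that were tested, 38 were lower and 3 were higher, beside 25.3% lower and 24.2% higher among all genes. The hosts' median log2 fold change was -0.36. Most hosts had a mean log2 CPM above 2, where 60.8% of all genes were called in either direction. Among the higher hosts were USP32 and MAGED2.

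The calls of members and of their hosts are set side by side here, where 47 of the members with a tested host had a lower host. Among the 96 members with a tested host, 2 were higher with a higher host, SCARNA20 with USP32 among them. Another 6 were higher with a host that was lower: SCARNA5, SCARNA7, SCARNA22, SNORA2B, SNORA23 and SNORA37. SNORA37 rose while MBD2 fell from 36.4 ± 2.71 to 22.5 ± 1.39 CPM (SD, n = 3 each, log2 fold change -0.70, adjusted p = 5.09e-05 in edgeR). SCARNA22 rose while NSD2 fell by 0.63 on the log2 scale (adjusted p = 0.000686 in edgeR). The 4 members that were lower with a lower host were SNORD12B and SNORD12C in ZFAS1 (host -0.95, adjusted p = 0.0120), SNORD11 in NOP58 (host -1.06, adjusted p = 5.80e-06) and SNORD99 in SNHG12 (host -1.30, adjusted p = 0.000608), all in edgeR. In 37 cases the host was lower and the member did not pass, and in 0 was the member lower and the host higher. A host that did not pass was found for 4 higher and 4 lower members. A lower host was thus about as frequent among called members as among all 96.

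Across these 96 members, the median log2 fold change was 0.08 for the 47 with a lower host, 0.05 for the 46 with a host that did not pass and 0.84 for the 3 with a higher host. The Pearson correlation of member and host log2 fold changes was 0.23 and Spearman's rho 0.16 over the 96 members. This is a description across genes, which share hosts and libraries and are not independent replicates. Reads from unspliced host transcripts can also be counted at a member, and their part was not tested.

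**Figure D4:**
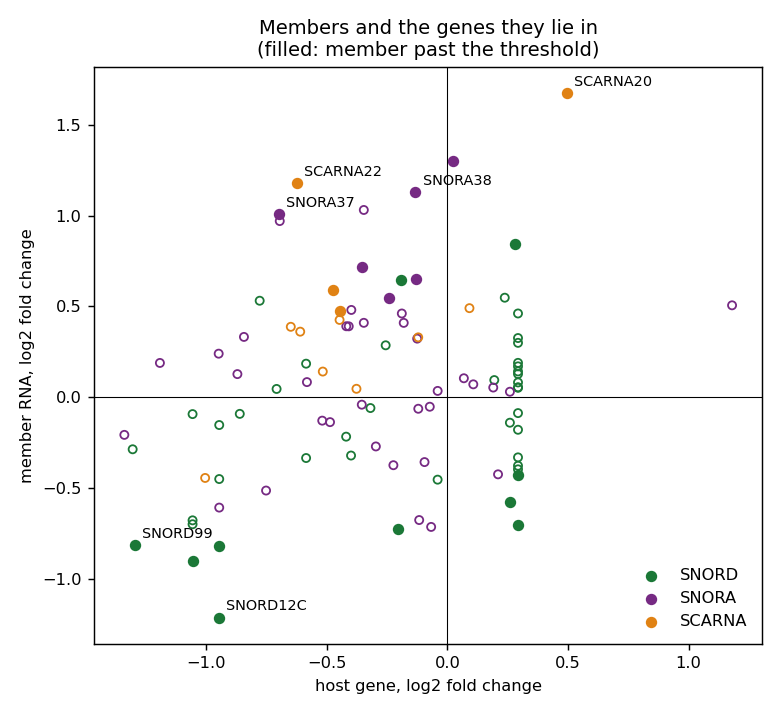
The log2 fold change of each of the 96 members with a tested host (vertical axis) against that of its host gene (horizontal axis), coloured by class and filled where the member passed the threshold. Filled points in the upper left quadrant are members that were higher while the host's change was below 0, among them SCARNA22 and SNORA37, and SNORD12C and SNORD99 lie at the lower left.

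Proteins that build and modify these RNPs were read from a list of 36 genes, and all 36 were tested. In edgeR 28 were lower and 0 higher, with 0 higher at an unadjusted p under 0.05 and 0 in DESeq2 or limma-voom, beside 25.3% lower and 24.2% higher among all genes. The median log2 fold change was -0.50. With library size only, 23 were lower and 1 higher. RRP9, the U3-specific protein, fell from 96.7 ± 8.62 to 41.5 ± 7.31 CPM (SD, n = 3 each, log2 fold change -1.22, adjusted p = 5.05e-06 in edgeR), beside the U3 values above.

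Of the box C/D core proteins, NOP58 had a log2 fold change of -1.06, NOP56 of -0.67, the methyltransferase FBL of -0.47 and SNU13 of -0.37, and all passed in edgeR. Of the box H/ACA core, the pseudouridine synthase DKC1 fell from 364 ± 7.84 to 175 ± 2.98 CPM (SD, n = 3 each, log2 fold change -1.06, adjusted p = 3.61e-07 in edgeR), and GAR1 (-0.82) and NHP2 (-0.47) passed too. NOP10, the smallest core protein, did not (log2 fold change 0.16, adjusted p = 0.336 in edgeR). Assembly and trafficking genes that passed included NUFIP1 (-1.02), TCOF1 (-1.16), NOLC1 (-0.74), WRAP53 (-0.61), which brings scaRNAs to Cajal bodies, and COIL (-0.33), the Cajal body scaffold. The 8 that did not pass were NOPCHAP1, LARP7, ZNHIT3, PIH1D1, GEMIN2, TAF9, NOP10 and NCBP2. Of the protein genes 28 of 36 were called lower, and of the member RNAs 8 of 113, beside 25.3% of all genes. These counts cannot be compared directly, since the lists differ in level and in spread between replicates. All the protein genes had a mean log2 CPM above 2, where 60.8% of all genes were called in either direction. Below 2, where 63 members lay, 31.5% were. The difference between the lists was not tested.

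**Figure D5:**
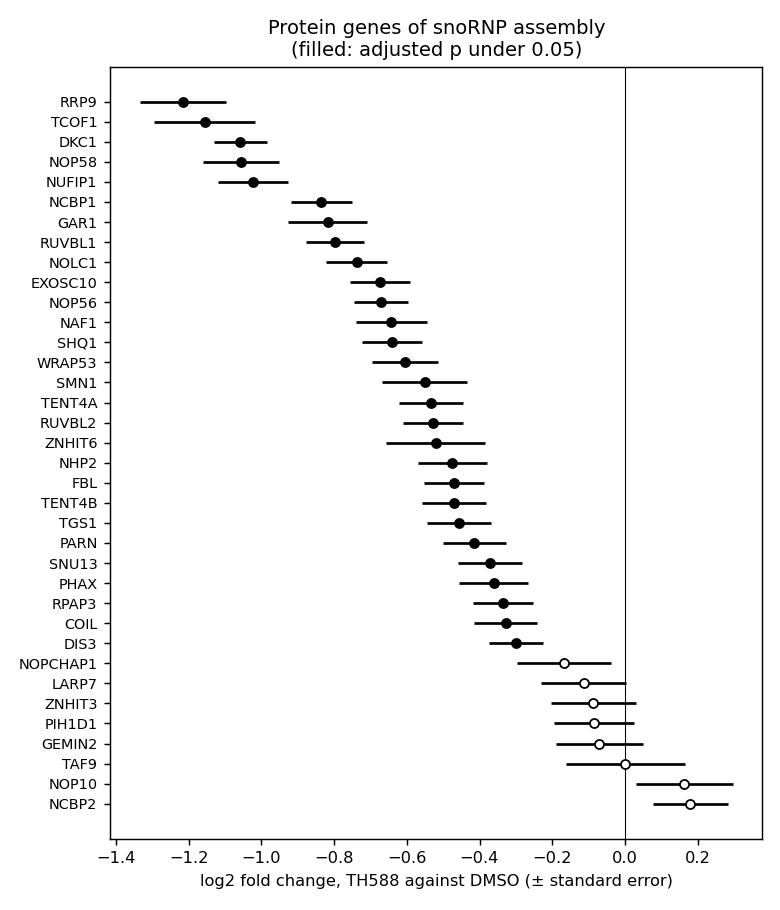
The log2 fold change of TH588 against DMSO with its standard error (horizontal axis) for the 36 listed protein genes of snoRNP assembly (vertical axis), filled where the adjusted p was under 0.05. The 28 filled points all lie below 0, from RRP9 at -1.22 to DIS3 at -0.30.

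Other short noncoding RNAs, such as those of the spliceosome, the signal recognition particle and RNase P, could hardly be read. Of 35 listed genes 21 were at 0 in every library, and 4 passed the filter. RN7SL3 rose from 3.90 ± 1.01 to 8.17 ± 2.93 CPM (SD, n = 3 each, log2 fold change 1.04, adjusted p = 0.00411 in edgeR). RN7SL2, an RNA of the signal recognition particle, was at 128, 172 and 113 CPM with DMSO and 201, 106 and 168 with TH588, again highest in TH588 replicate A (log2 fold change 0.20, adjusted p = 0.443 in edgeR). RNU4ATAC and RNU4-2 did not pass.

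Leaving out single libraries moved the members' counts of calls. Without TH588 replicate A 11 were higher and 10 lower, and SCARNA5, SNORA23, SNORD116-17 and SNORD3A lost their calls. Without DMSO replicate A 11 were higher and 13 lower, and without DMSO replicate C 11 and 4. Without TH588 replicate B 22 were higher and 5 lower, and without DMSO replicate B 19 and 6. Between 15 and 19 of the 22 calls were kept in each case.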

How the data were processed

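RNA from A2780 cells (DMSO or TH588, 3 replicates each) was sequenced after a TruSeq RNA v2 preparation. Per the submitters' notes, the authors aligned reads to GRCh38 with TopHat and counted them per gene with featureCounts 1.4.6 of Subread, and deposited raw counts without normalization. The sources used here do not give how strand, overlapping genes or reads matching several places were handled, and these choices set which short genes nested in others can be counted.

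Symbols were matched by Ensembl identifier for 57754 of 58336 genes, and coordinates of all 113 members equalled those of GENCODE v44. Counts were compared in R 4.3.3 with edgeR 4.0.16 (default filter, TMM, quasi-likelihood test, Benjamini-Hochberg adjustment over all 15844 genes). Standard errors are the log2 fold change over the square root of F. The p-values set the group difference against the spread between these 3 replicates per group, estimated with help from all genes tested. The labels do not say what the replicates are. Replicates differed beyond sampling noise, since chi-square over its degrees of freedom was 25.2 to 179.9. Counts at the floor of 3 correspond to 0.0303 to 0.105 CPM.

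The name and values of 1 gene that holds a member are not reported here. Members and lists were chosen with earlier results of these data known. Named members are the 6 most abundant of each class, the 8 largest called rises and falls, and textbook groups (U3, U8, U13, U14, U17, U22, SCARNA, SNORD115, SNORD116). Alternatives were DESeq2 1.42.0, limma 3.58.1 (voom), other scalings and filters, a stricter threshold, the replicate letter as a block, each library left out, and, chosen after seeing the data, the most abundant gene as host. The procedure was tested on simulated counts, after a first fit of the real ones.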

Additional observations from a re-analysis of the deposited data

How the results depend on the processing

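The members' 14 higher and 8 lower calls became 2 and 1 when counts were scaled to the other short noncoding RNAs, which rest mostly on RN7SL2. That scaling moved the median of all genes to -0.15 and gave 791 higher and 727 lower genes in all, 5 lower protein genes of snoRNP assembly, 0 higher and 10 lower hosts, and 0.36 for SNORD3A. With library size only, members lower numbered 5, protein genes higher 1 and hosts higher 8. The median of all genes was then 0.13 and 60.4% of all calls were higher, against 48.9%. Without a filter 28 members were higher and 15 lower, and at an adjusted p under 0.01 8 were higher and 3 lower, while SNORD3A (0.64) was not called. Hosts higher numbered 6 with DESeq2, 5 with limma-voom, 5 without a filter and 7 with at least 10 counts in every library, against 3. SNORD3A was not called with DESeq2 (0.65) or limma-voom (0.56). The members' summed share of TH588 replicate A was 1.75% with the U3 genes left out of the total, against 1.37%. The causes were not tested.

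With each library left out, members higher ranged from 11 to 22 and lower from 4 to 13, hosts higher from 3 to 7, other short noncoding RNAs higher from 1 to 2, and SNORD3A from 0.20 to 0.86. Log2 fold changes of uncalled members that changed sign ranged from -0.23 to 0.90 for SCARNA1, -0.27 to 1.34 for SCARNA3, -0.33 to 0.76 for SCARNA9, -0.22 to 0.17 for SCARNA13, -0.53 to 0.45 for SCARNA18, -0.19 to 0.13 for SNORA53, -0.47 to 0.10 for SNORA74A, -0.25 to 0.61 for SNORD116-18, -0.056 to 0.16 for SNORD17 and -0.28 to 0.0064 for SNORD3B-1. Scaled to other short noncoding RNAs, SCARNA1 was at -0.023, SCARNA13 at -0.18, SCARNA18 at -0.21 and SNORD17 at -0.13. With limma-voom SCARNA9 was at -0.10, SCARNA13 at -0.064 and SCARNA18 at -0.37, and with library size only SNORA53 was at 0.041.

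The labels give the letters A, B and C to both groups. Same-lettered libraries, each taken relative to its group's mean, had correlations of -0.17, -0.20 and -0.01 over all genes, so the letters were not taken to pair the samples. With the replicate block, 13 members were higher and 8 lower, 19 of them shared with the 22 calls, SNORD3A was at 0.55 without a call and SCARNA18 at -0.066. Low counts limit members under about 1 CPM most, and a change there that was not called shows little.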

Other observations

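Of the genes tested, the 5 whose log2 levels followed SNORD3A most closely over the 6 libraries were CSPG4P11, ASB3, SCARNA6, SNORA5C and ATP5MF-PTCD1, by Pearson correlation on log2(CPM + 0.5), with r from 0.987 to 0.997. With 6 libraries, of which 1 stood apart, this is a description only. ASB3 at 0.122 to 0.523 CPM and ATP5MF-PTCD1 at 0.110 to 0.523 CPM were near or below the 0.5 CPM added before the log. SNORA5C was at 1.30, 2.67 and 2.21 CPM with DMSO and 8.89, 2.22 and 2.34 CPM with TH588, where only TH588 replicate A was above the DMSO range. For SNORD3A's normalized level, TH588 replicates A and C were above it.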
